A study of Mus musculus with 8 samples.

Results

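The genes described here are 10 regulators of growth, most of them imprinted: Igf2, H19, Dlk1, Peg3, Plagl1, Ndn, Mest, Grb10, Cdkn1c and Gpc3. They were taken by symbol, and each gene was represented by the probe set with the highest mean over the 8 arrays among the probe sets annotated to that gene alone. Of the 10 genes, 9 were measured in this way, among 12393 genes in all. The exception was H19, whose one probe set is annotated to both H19 and Mir675, the microRNA gene that lies inside it. That probe set is given under both names, and it is not counted among the 9 genes.

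An imprinted gene is transcribed from the copy inherited from one parent, and the choice is held by DNA methylation laid down in the germ line. In mouse many paternally expressed imprinted genes promote growth of the fetus and many maternally expressed ones restrain it. Most of them are active in the embryo and become quiet in adult tissue, while skeletal muscle, its stem cells and fat keep some of them on. Gpc3 lies on the X chromosome and is not one of the imprinted genes listed here, and its loss causes overgrowth in mouse.

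Total RNA was measured on 8 Affymetrix arrays, each read as log2 expression per probe set after RMA, which corrects background, brings the arrays to a common distribution and combines the probes of each set. There were 4 sarcomas of Braf Ca/Ca mice (numbers 1, 2, 3 and 5), 2 sarcomas of Braf Ca/+ mice (numbers 1 and 2), 1 muscle of a Braf Ca/Ca mouse and 1 muscle of a Braf Ca/+ mouse. All 8 samples, muscles included, carried the genotype p53 Fl/Fl, in which both copies of p53 are floxed. Tumours were primary soft tissue sarcomas started by injecting an adenovirus that expresses Cre recombinase into mice with the conditional Braf and p53 alleles, and the muscles came from hind limbs that bore no tumour. Neither the ages nor the cells in which Cre acted are stated in the labels. The samples are bulk tissue, so fewer cells of a type and less RNA per cell cannot be told apart. Nothing in the labels says that the arrays came from separate mice, so each p-value reflects only how these arrays vary, and some of that variation may be technical.

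The labelled tissues held their markers. The mean of 10 muscle fibre markers was 6.48 to 8.59 in sarcomas and 12.58 to 12.71 in muscles, and all 10 fell. The mean of 8 cell division markers was 6.57 to 8.75 in sarcomas and 5.25 to 6.24 in muscles, and 6 of the 8 rose. The muscles also held fat: the mean of 6 adipocyte markers was 5.39 to 7.45 in sarcomas, 9.61 (Ca/Ca) and 11.26 (Ca/+) in the muscles, and all 6 fell. Satellite cell and myoblast markers fell in 6 of 8 genes (means of 5.42 to 6.23 in sarcomas and 6.64 to 6.93 in muscles) and endothelial markers in 5 of 7 (5.58 to 6.70 in sarcomas and 7.83 to 7.96 in muscles). Of 9 fibroblast markers 1 rose, of 8 macrophage markers 2 rose and of 4 Schwann cell markers 1 fell. As a guide to the floor of the arrays, 31 olfactory receptor genes had a median of 2.92, and 95% of their values were at or under 3.95. The 12393 genes had a median level of 6.38.

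Mature microRNAs are encoded within 3 of the genes, and they are shown because one of them, Mir675, shares its probe set with H19. Both arms of Mir675 lie within H19, those of Mir483 within Igf2 and those of Mir335 within Mest. The sequences are from RefSeq (GRCm38.p6), read 5′ to 3′, with the seed (bases 2 to 8) in capitals.
mmu-miR-675-5p: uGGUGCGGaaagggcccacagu
mmu-miR-675-3p: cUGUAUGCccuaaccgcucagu
mmu-miR-483-5p: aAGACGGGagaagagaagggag
mmu-miR-483-3p: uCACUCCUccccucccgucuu
mmu-miR-335-5p: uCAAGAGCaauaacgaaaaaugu
mmu-miR-335-3p: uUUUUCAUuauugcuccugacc
The 6 arms have 6 different seeds. The arrays do not measure these short RNAs apart from their hosts.

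Promoter sequence was at hand for 8 of the 10 genes (250 bases before to 50 after the start, RefSeq, GRCm38.p6). Printed are those of the genes that fell in sarcomas, Peg3 and Gpc3, and that of Ndn, whose level set one sarcoma apart. The base pair step CG, the target of the methylation that marks imprinted copies, is in capitals.
Peg3, chr7:6730370-6730669 (- strand): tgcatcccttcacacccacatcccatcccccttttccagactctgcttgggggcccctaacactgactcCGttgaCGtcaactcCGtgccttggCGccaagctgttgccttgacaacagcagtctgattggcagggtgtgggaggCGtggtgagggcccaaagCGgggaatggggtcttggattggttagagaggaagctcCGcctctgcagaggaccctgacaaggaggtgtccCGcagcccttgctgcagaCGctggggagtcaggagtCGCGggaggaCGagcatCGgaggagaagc
Gpc3, chrX:52613925-52614224 (- strand): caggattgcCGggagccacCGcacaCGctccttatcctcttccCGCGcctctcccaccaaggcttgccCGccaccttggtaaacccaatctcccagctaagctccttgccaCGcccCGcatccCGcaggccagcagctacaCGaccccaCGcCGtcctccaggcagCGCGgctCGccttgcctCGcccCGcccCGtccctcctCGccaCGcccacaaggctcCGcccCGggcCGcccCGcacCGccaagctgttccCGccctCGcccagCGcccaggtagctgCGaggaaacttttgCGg
Ndn, chr7:62348027-62348326 (+ strand): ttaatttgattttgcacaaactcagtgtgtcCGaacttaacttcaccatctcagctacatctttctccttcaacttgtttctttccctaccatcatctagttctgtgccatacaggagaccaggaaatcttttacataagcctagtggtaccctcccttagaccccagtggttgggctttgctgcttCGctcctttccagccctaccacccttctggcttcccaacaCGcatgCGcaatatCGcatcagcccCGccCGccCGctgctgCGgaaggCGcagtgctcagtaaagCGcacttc
The Peg3 promoter holds 13 CG steps, that of Gpc3 30 and that of Ndn 11, against a median of 7 over 32851 promoters of the same length. Grb10 spans the widest range, with 45 CG steps at one start, at least as many as 98.4% of promoters, and 9 at the other. Igf2 has 4 listed starts with 2, 14, 24 and 7 steps. The GC box GGGCGG, searched on both strands, was found 4 times at Gpc3, 2 times at Ndn and not at Peg3, and it occurs in 35.7% of all these promoters. TATAAA, searched on both strands and found in 13.6% of all promoters, was in none of the 14 promoters of the set. No methylation was measured here.

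The main comparison asks how the sarcomas differ from normal muscle. Peg3 and Gpc3 fell in sarcomas, no gene of the set rose, and 7 of the 9 did not pass. Passing means an adjusted p under 0.05 in limma, a linear model with moderated variances fitted to all 12393 genes, with Benjamini-Hochberg adjustment over all of them. By that rule 26.3% of all genes changed and 13.2% fell, so 2 of 9 is close to the share of all genes. The median difference over the 9 genes was -0.57 on the log2 scale, and over all genes it was 0.03. Only Gpc3 had all 6 sarcomas on the same side of both muscles. Of all genes 38.9% did so (20.0% higher and 19% lower in sarcomas). Where a fit below leaves 1 muscle, its spread comes from the sarcomas alone. Its p-values then do not hold the variation between muscles.

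**Figure D1:**
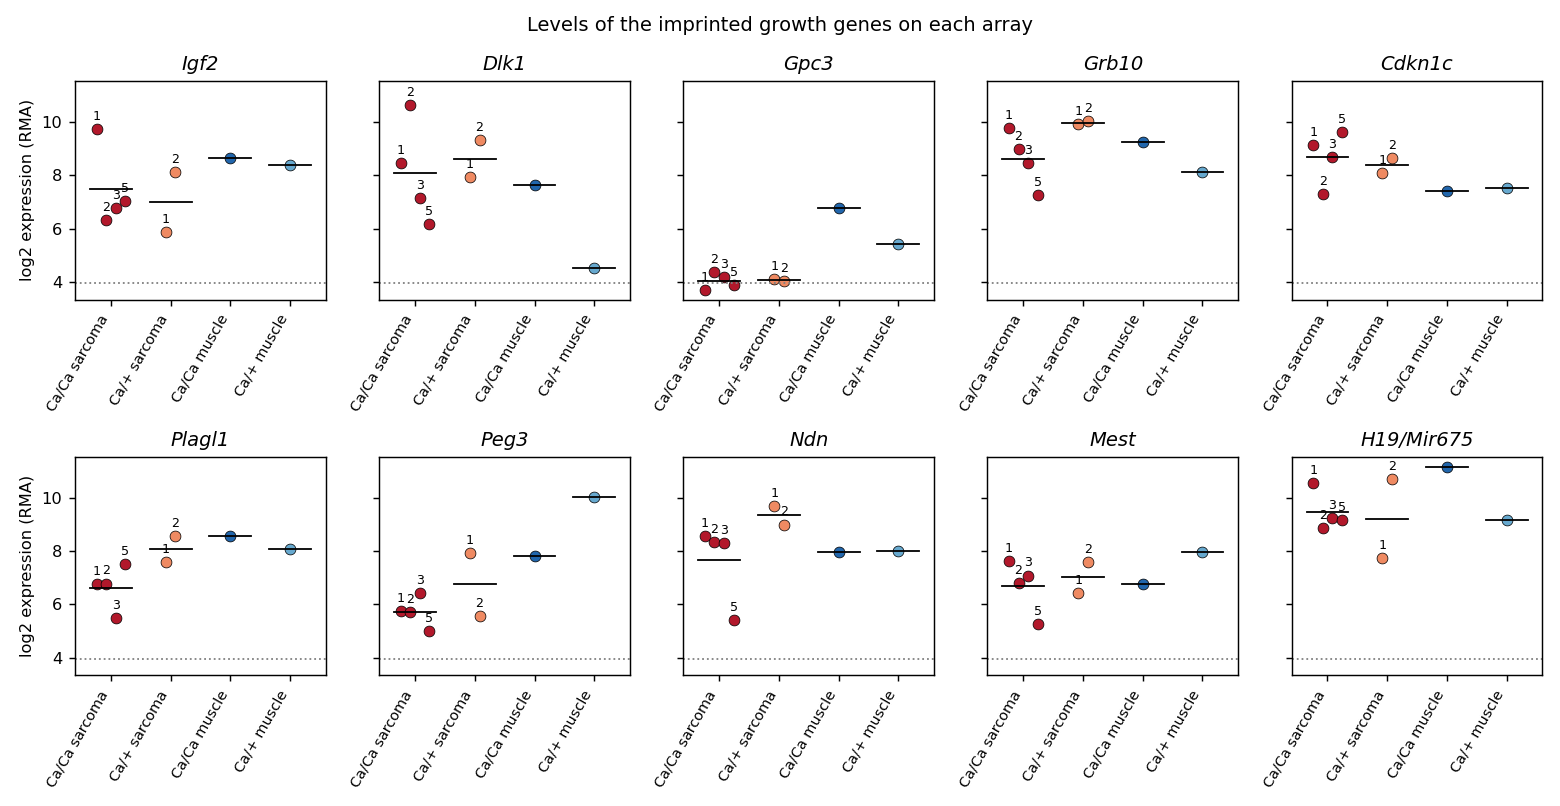
Log2 expression (vertical axis) of the 9 measured genes and of the H19/Mir675 probe set on each array, by group (horizontal axis). Each point is an array, numbers are tumour numbers, black lines are group means and the dotted line is the 95% level of olfactory receptor genes at 3.95. Gpc3 is low in all 6 sarcomas, while Igf2, Dlk1, Ndn and Plagl1 spread over more than 3 log2 units among sarcomas.

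Among the ligands, Igf2, the fetal insulin-like growth factor, had log2 levels of 9.73, 6.34, 6.79 and 7.04 in Ca/Ca sarcomas 1, 2, 3 and 5 and of 5.88 and 8.12 in Ca/+ sarcomas 1 and 2, against muscle levels of 8.66 (Ca/Ca) and 8.40 (Ca/+). Ca/Ca sarcoma 1 lay above both muscles and the other 5 sarcomas lay below both, so the groups overlap. The difference of -1.21 (SE 0.89, adjusted p = 0.368, limma) did not pass. Igf2 has another probe set, which read 2.06 to 2.95 in sarcomas and 2.99 (Ca/Ca) and 2.58 (Ca/+) in muscles, at the floor on every array. The receptor for Igf2 signalling, Igf1r, differed by 1.29 (SE 0.67, adjusted p = 0.199, limma), and Igf2r, the maternally expressed receptor that clears Igf2, by 0.57 (SE 0.39, adjusted p = 0.335, limma). Igf1, the other ligand of Igf1r, fell by 2.14 (SE 0.34, adjusted p = 0.00286, limma).

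Dlk1, a membrane protein of the Notch ligand family that holds back fat cell differentiation, had levels of 8.46, 10.63, 7.16 and 6.16 in Ca/Ca sarcomas 1, 2, 3 and 5 and of 7.95 and 9.31 in Ca/+ sarcomas 1 and 2, against muscle levels of 7.65 (Ca/Ca) and 4.53 (Ca/+). All 6 sarcomas lay above the Ca/+ muscle, and 4 of them also above the Ca/Ca muscle. The difference of 2.19 (SE 1.18, adjusted p = 0.217, limma) did not pass. It was 0.62 (adjusted p = 0.852) against the Ca/Ca muscle alone and 3.75 (adjusted p = 0.112) against the Ca/+ muscle alone. Meg3, the maternally expressed RNA beside Dlk1, ranged from 7.23 to 8.83 in sarcomas and read 9.07 (Ca/Ca) and 7.95 (Ca/+) in the muscles, a difference of -0.57 (SE 0.46, adjusted p = 0.413, limma). Rtl1, another neighbour, was not analysed here. Of the Notch receptors, Notch2 rose by 1.71 (adjusted p = 0.0129, and 0.154 without the Ca/+ muscle; 0.73 with the mean of its probe sets, adjusted p = 0.0336), Notch3 fell by 1.93 (adjusted p = 0.00106), and Notch1 did not pass (-0.33, adjusted p = 0.549).

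Gpc3, a heparan sulfate proteoglycan of the cell surface that binds growth factors, had levels of 3.71, 4.39, 4.19 and 3.89 in Ca/Ca sarcomas 1, 2, 3 and 5 and of 4.12 and 4.06 in Ca/+ sarcomas 1 and 2, against muscle levels of 6.76 (Ca/Ca) and 5.42 (Ca/+). Every sarcoma lay below both muscles, and 2 of the 6 were at or under the 95% level of olfactory receptor genes. Gpc3 fell by 2.03 (SE 0.32, adjusted p = 0.00285, limma), which is 4.09-fold lower. Since the sarcomas lie at or close to the floor, this may understate the fall. Its SD was 0.23 over the 6 sarcomas and 0.94 over the 2 muscles. The fit takes a common spread for both tissues, so its SE and p-value may understate the variation between muscles. Gpc3 fell by 2.70 against the Ca/Ca muscle alone and by 1.37 against the Ca/+ muscle alone. In these 2 fits the spread comes from the sarcomas alone, which lie close together near the floor, so only the differences are given. Fibroblast markers, 9 genes, had means of 9.87 to 10.51 in sarcomas, 10.60 (Ca/Ca) and 9.75 (Ca/+) in the muscles, and Schwann cell markers, 4 genes, 5.97 to 6.24 in sarcomas, 7.43 (Ca/Ca) and 6.68 (Ca/+) in the muscles. The part of these cells in the result was not tested. Of the other glypicans, Gpc1 also fell, by 1.19 (adjusted p = 0.0236, and 0.0745 without the Ca/+ muscle and 0.171 without the Ca/Ca muscle), and Gpc4 (1.17, adjusted p = 0.11) and Gpc6 (0.31, adjusted p = 0.193) did not pass.

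Grb10, an adaptor that restrains insulin and IGF receptor signalling, had levels of 9.78, 9.0, 8.48 and 7.26 in Ca/Ca sarcomas 1, 2, 3 and 5 and of 9.92 and 10.05 in Ca/+ sarcomas 1 and 2, against muscle levels of 9.23 (Ca/Ca) and 8.12 (Ca/+). Both muscles lay inside the range of the sarcomas. The difference of 0.40 (SE 0.72, adjusted p = 0.731, limma) did not pass. Its sign depended on the muscle, at -0.15 against the Ca/Ca muscle alone and 0.96 against the Ca/+ muscle alone. Its other probe sets read at most 5.02 on any array. Grb14, a related adaptor, fell by 1.34 (adjusted p = 0.0121), a call lost without the Ca/+ muscle (adjusted p = 0.101) or the Ca/Ca muscle (adjusted p = 0.0606).

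Cdkn1c, the maternally expressed p57 inhibitor of cyclin-dependent kinases, had levels of 9.12, 7.29, 8.70 and 9.63 in Ca/Ca sarcomas 1, 2, 3 and 5 and of 8.10 and 8.65 in Ca/+ sarcomas 1 and 2, against muscle levels of 7.40 (Ca/Ca) and 7.53 (Ca/+). Ca/Ca sarcoma 2 lay below both muscles and the other 5 sarcomas lay above both. The difference of 1.12 (SE 0.52, adjusted p = 0.16, limma) did not pass, and without Ca/Ca sarcoma 2 it did (1.37, adjusted p = 0.0373). Among its relatives, Cdkn1b fell by 0.85 (adjusted p = 0.0343), a call lost without the Ca/+ muscle (adjusted p = 0.212) or the Ca/Ca muscle (adjusted p = 0.109), and without Ca/Ca sarcoma 2, Ca/Ca sarcoma 3 or Ca/+ sarcoma 2 (adjusted p from 0.0546 to 0.0631). It was also lost with the mean of its probe sets (-0.43, adjusted p = 0.187) and with genotype as a covariate (adjusted p = 0.0503). Cdkn1a did not pass (0.45, adjusted p = 0.317).

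Among the nuclear proteins, Peg3, a large zinc finger protein that is paternally expressed and abundant in muscle and brain, had levels of 5.75, 5.72, 6.41 and 4.99 in Ca/Ca sarcomas 1, 2, 3 and 5 and of 7.93 and 5.57 in Ca/+ sarcomas 1 and 2, against muscle levels of 7.83 (Ca/Ca) and 10.04 (Ca/+). Ca/+ sarcoma 1 lay just above the Ca/Ca muscle, and the other 5 sarcomas lay below both muscles. Peg3 fell by 2.87 (SE 0.79, adjusted p = 0.0283, limma), which is 7.31-fold lower. Its 3 probe sets differed by -2.87, -2.5 and -1.59, at adjusted p of 0.0286, 0.0386 and 0.0234 in a limma fit over all probe sets.

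The call for Peg3 depended on single arrays. The difference was -1.77 (adjusted p = 0.297) without the Ca/+ muscle, and the call was also lost without Ca/Ca sarcoma 1 (-2.81, adjusted p = 0.052), Ca/Ca sarcoma 2 (-2.80, adjusted p = 0.0539) or Ca/+ sarcoma 2 (-2.77, adjusted p = 0.0563). With Ca/Ca arrays alone, 4 sarcomas against 1 muscle, Peg3 differed by -2.11 (adjusted p = 0.0993), and with Ca/+ arrays alone, 2 sarcomas against 1 muscle, by -3.28 (adjusted p = 0.155). The muscle with more Peg3 was also the one with more adipocyte RNA, with a marker mean of 11.26 against 9.61 in the Ca/Ca muscle, and the part of fat in this result was not tested. Usp29 and Zim1, the neighbours of Peg3, were at the floor on all 8 arrays.

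Plagl1, a zinc finger factor known in mouse to act on other imprinted genes, had levels of 6.75, 6.78, 5.48 and 7.51 in Ca/Ca sarcomas 1, 2, 3 and 5 and of 7.59 and 8.58 in Ca/+ sarcomas 1 and 2, against muscle levels of 8.57 (Ca/Ca) and 8.06 (Ca/+). Ca/+ sarcoma 2 lay level with the Ca/Ca muscle, and the other 5 sarcomas lay below both muscles. The difference of -1.20 (SE 0.67, adjusted p = 0.235, limma) did not pass. A further probe set of Plagl1 read between 2.61 and 3.33, at the floor.

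Ndn, necdin, a MAGE family protein that restrains cell division in neurons and muscle precursors, had levels of 8.55, 8.34, 8.31 and 5.40 in Ca/Ca sarcomas 1, 2, 3 and 5 and of 9.67 and 9.0 in Ca/+ sarcomas 1 and 2, against muscle levels of 7.97 (Ca/Ca) and 8.01 (Ca/+). Ca/Ca sarcoma 5 was far below every other array, and the other 5 sarcomas lay above both muscles. The difference of 0.22 (SE 0.93, adjusted p = 0.892, limma) did not pass and was -0.03 under ribosomal protein centring, and without Ca/Ca sarcoma 5 it was 0.78 (adjusted p = 0.153). The 5 probe sets of Ndn above the floor all placed Ca/Ca sarcoma 5 lowest, at 5.31 to 5.97. Its cluster neighbours Magel2 (3.97 to 4.78 in sarcomas), Mkrn3 (2.46 to 2.89) and Snrpn (3.76 to 3.88) were close to the floor.

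Mest, a paternally expressed protein of the hydrolase fold known in mouse for its link to fat tissue growth, had levels of 7.63, 6.80, 7.08 and 5.28 in Ca/Ca sarcomas 1, 2, 3 and 5 and of 6.44 and 7.58 in Ca/+ sarcomas 1 and 2, against muscle levels of 6.77 (Ca/Ca) and 7.98 (Ca/+). All 6 sarcomas lay below the Ca/+ muscle, and 4 of them lay above the Ca/Ca muscle. The difference of -0.57 (SE 0.61, adjusted p = 0.541, limma) did not pass. Copg2, which overlaps the same imprinted region, differed by 0.16 (adjusted p = 0.386).

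The H19/Mir675 probe set had levels of 10.55, 8.85, 9.25 and 9.17 in Ca/Ca sarcomas 1, 2, 3 and 5 and of 7.74 and 10.69 in Ca/+ sarcomas 1 and 2, against muscle levels of 11.17 (Ca/Ca) and 9.15 (Ca/+). The Ca/Ca muscle was the highest of the 8 arrays, and the Ca/+ muscle lay inside the sarcoma range. The difference of -0.78 (SE 0.81, adjusted p = 0.537, limma over all probe sets) did not pass. H19 is a long non-coding RNA of embryonic tissue and adult skeletal muscle.

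**Figure D2:**
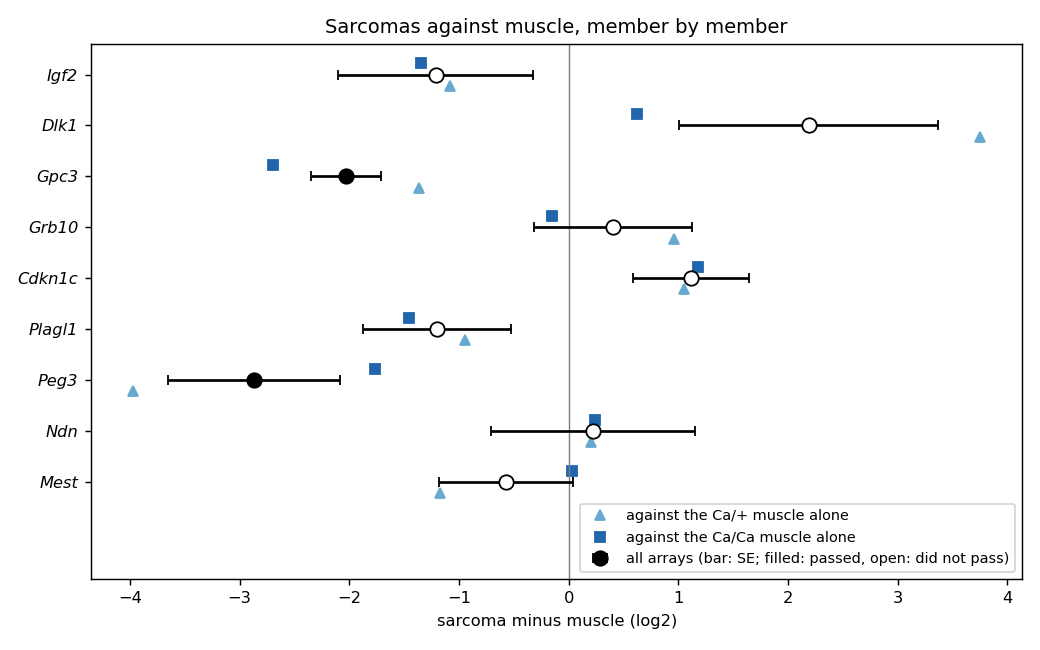
Difference of sarcomas minus muscle (horizontal axis, log2) for each of the 9 genes (vertical axis), with all arrays (circles, bars are SE, filled where the gene passed), against the Ca/+ muscle alone (triangles) and against the Ca/Ca muscle alone (squares). Grb10 and Mest change sign between the muscles, and all the other genes keep their direction against either muscle, whether or not they passed.

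The muscles differed from each other in many of these genes, which bears on every comparison with them. With 1 array each there is no test. Of the 9 genes, 5 differed by at least 1 log2 unit between the Ca/Ca and Ca/+ muscles, against 7.02% of all genes. Dlk1 was 3.13 higher, Gpc3 1.33 higher and Grb10 1.11 higher in the Ca/Ca muscle, and Peg3 was 2.21 and Mest 1.20 lower in it. The median size of the difference was 1.11 over the 9 genes and 0.22 over all genes. Igf2 (0.27), Plagl1 (0.51), Cdkn1c (-0.13) and Ndn (-0.04) differed by less, and H19/Mir675 was 2.01 higher in the Ca/Ca muscle. Between the Ca/Ca and Ca/+ muscles, macrophage markers (8 genes) averaged 9.0 against 7.64, adipocyte markers 9.61 against 11.26 and cell division markers 6.24 against 5.25. The part of these cell types was not tested.

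Whether the copy number of the Braf allele mattered was asked in the sarcomas alone, 4 Ca/Ca against 2 Ca/+. None of the 9 genes passed, and 0% of all genes did, with 1 of the 9 and 971 of 12393 genes at an unadjusted p under 0.05 in limma. Plagl1 averaged 6.63 ± 0.84 (SD, n = 4) in Ca/Ca sarcomas and 8.08 ± 0.70 (SD, n = 2) in Ca/+ sarcomas, a difference of -1.45 (SE 0.57, adjusted p = 0.629, limma), which was -0.96 without Ca/+ sarcoma 2 and -0.88 with the mean of its probe sets. Ndn averaged 7.65 ± 1.5 (SD, n = 4) in Ca/Ca sarcomas and 9.33 ± 0.48 (SD, n = 2) in Ca/+ sarcomas, a difference of -1.68 (SE 0.92, adjusted p = 0.682, limma), which was -0.93 without Ca/Ca sarcoma 5 and ran from -2.02 to -0.89 over the alternatives. Grb10 averaged 8.63 ± 1.06 (SD, n = 4) in Ca/Ca sarcomas and 9.98 ± 0.09 (SD, n = 2) in Ca/+ sarcomas, a difference of -1.35 (SE 0.65, adjusted p = 0.662, limma), which was -0.90 without Ca/Ca sarcoma 5 and ran from -1.74 to -0.55, the last with the mean of its probe sets. In these 3 genes all Ca/Ca sarcomas lay below both Ca/+ sarcomas, and 11.3% of all genes did the same, while 9.68% lay the other way. For the other 6 the genotypes overlapped, with differences from -1.03 (Peg3) to 0.48 (Igf2).

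The difference between sarcoma and muscle was also compared between the genotypes, as an interaction over 4 groups in which each lone muscle is assumed to vary like the sarcomas. None of the 9 genes passed (1 at an unadjusted p under 0.05, limma), and 0.00807% of all genes did. The largest estimates were those of Dlk1 (-3.65) and Grb10 (-2.47), and that of Gpc3 was -1.37. Each is the Ca/Ca minus Ca/+ difference in sarcomas less that between the 2 single muscles. These parts were -0.52 and 3.13 for Dlk1, -1.35 and 1.11 for Grb10, and -0.04 and 1.33 for Gpc3. The 1 gene under the unadjusted threshold was Gpc3. Its SD was 0.23 over the 6 sarcomas, which lie near the floor, and 0.94 over the 2 muscles. The assumption that a lone muscle varies like the sarcomas may therefore not hold for Gpc3.

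The sarcomas differed widely among themselves in these genes. The median SD over the 6 sarcomas was 1.04 for the 9 genes, 0.31 for 35 other imprinted genes and 0.24 for all genes. In 8 of the 9 genes the SD was larger than in 90% of all genes, with Dlk1 (SD 1.58), Ndn (1.47) and Igf2 (1.40) widest, and Gpc3 (0.23) was the exception. Among the 35 other imprinted genes, 7 had an SD that large, and 5 of the 35 were at the floor on all 8 arrays. The ranking takes no account of level. By mean level the 8 genes lay at percentiles from 56.2 to 88.4 of all genes, and Gpc3 at 26.9. The set was also chosen with earlier results of these data known. The arrays that stood out were not the same from gene to gene. Igf2 and Mest were highest in Ca/Ca sarcoma 1, Dlk1 and Gpc3 in Ca/Ca sarcoma 2, Cdkn1c in Ca/Ca sarcoma 5, Peg3 and Ndn in Ca/+ sarcoma 1, and Plagl1 and Grb10 in Ca/+ sarcoma 2.

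Ca/Ca sarcoma 5 was the lowest of the 6 sarcomas in 5 of the 9 genes, Dlk1, Peg3, Ndn, Mest and Grb10, and it was the lowest in 20.5% of all genes. In Cdkn1c it was the highest. Of 10 genes around Cdkn1c and Igf2, a group chosen after its values were seen, it was the highest sarcoma in 5, Cdkn1c, Kcnq1, Phlda2, Slc22a18 and Cd81. Kcnq1, a potassium channel gene, had a level of 8.45 there, against 5.50 to 6.87 in the other sarcomas, and Phlda2, a growth restraining gene of the placenta, one of 7.22, against 3.85 to 6.38. The other 5 were highest elsewhere, Igf2 in Ca/Ca sarcoma 1, Ascl2 in Ca/Ca sarcoma 2, Osbpl5 and Nap1l4 in Ca/+ sarcoma 1 and Tssc4 in Ca/+ sarcoma 2. Ascl2, a transcription factor gene, was lowest in Ca/Ca sarcoma 5, at 4.05 against 4.86 to 5.63 in the others. Ca/Ca sarcoma 5 was the highest sarcoma in 23.4% of all genes. It also had the lowest mean of the macrophage markers (8.44, against 9.09 to 9.88 in the other sarcomas) and of the cell division markers (6.57, against 7.56 to 8.75). Its mean of the adipocyte markers was the lowest too (5.39, against 5.93 to 7.45). That of the satellite cell and myoblast markers was the highest (6.23, against 5.42 to 6.01). The part of these cell types and of cell division in these levels was not tested.

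**Figure D3:**
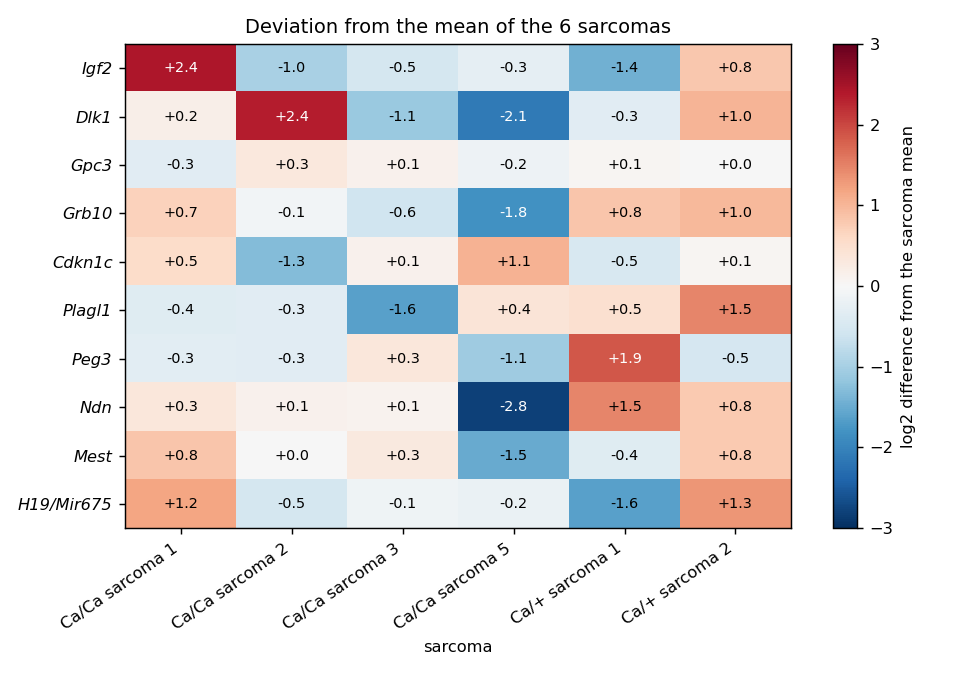
Deviation of each sarcoma (columns) from the mean of the 6 sarcomas for each gene (rows), in log2 units, coloured from blue (lower) to red (higher). Ca/Ca sarcoma 5 is low in Dlk1, Grb10, Peg3, Ndn and Mest and high in Cdkn1c, and Gpc3 is nearly flat.

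Levels of the genes were set against each other over the 6 sarcomas, as 45 pairs of the 9 genes and the H19/Mir675 probe set. Exact permutation tests over 6 sarcomas (two-sided, smallest possible p 0.00139) gave 3 pairs with an unadjusted p under 0.05 and 0 pairs that passed after Benjamini-Hochberg adjustment. Igf2 and H19/Mir675, which share an imprinting control region and enhancers, had Pearson's r of 0.885 (exact p = 0.0167, adjusted p = 0.375) and Spearman's rho of 0.886 (exact p = 0.0333, adjusted p = 0.75). Without the 2 sarcomas farthest from the median of Igf2, r was 0.92. Ndn and Grb10, on different chromosomes, had r of 0.918 (exact p = 0.00694, adjusted p = 0.312) and rho of 0.943 (exact p = 0.0167, adjusted p = 0.75), and r was 0.87 without the 2 sarcomas farthest from the median of Ndn. Cdkn1c and Gpc3 had r of -0.836 (exact p = 0.0444, adjusted p = 0.562), rho of -0.771 (exact p = 0.103, adjusted p = 0.842) and r of -0.72 without the 2 farthest, with Gpc3 close to the floor in all 6.

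**Figure D4:**
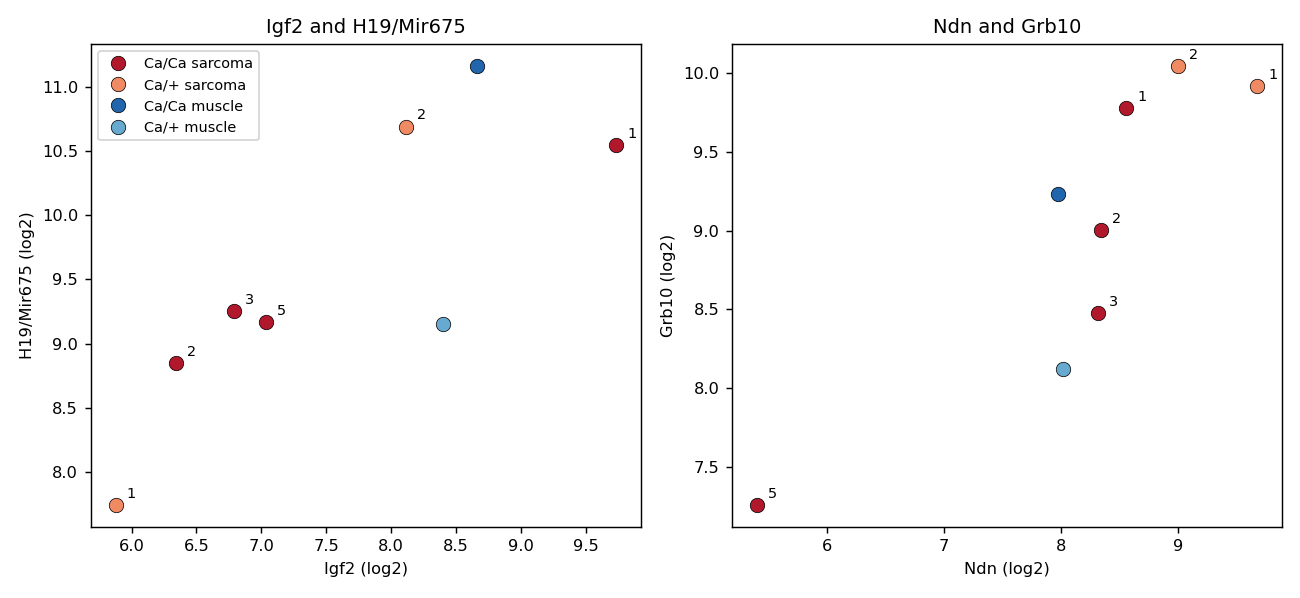
Levels on each array, in log2, of Igf2 (horizontal) and H19/Mir675 (vertical) on the left and of Ndn (horizontal) and Grb10 (vertical) on the right, coloured by group and numbered by tumour. Among the 6 sarcomas r was 0.885 on the left and 0.918 on the right, and neither pair passed adjustment over 45 pairs.

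The gene of the set with the widest range over the sarcomas was Dlk1, at 4.47 log2 units. Over all 8 arrays the levels most like it were those of Csf1r (r = 0.976), the receptor for macrophage growth factor, Nfya (r = 0.976), a subunit of a CCAAT-binding factor, and Fkbp15 (r = 0.964). These are the highest of 12392 values over 8 points, and they are given as a description with no test. Csf1r was 12.31 in Ca/Ca sarcoma 2, where Dlk1 was highest, and 10.74 in the Ca/+ muscle, where Dlk1 was lowest.

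The other imprinted genes give the frame for the set. Lists of 30 paternally and 26 maternally expressed genes were used, and 22 and 21 of them were measured, 8 of these belonging to the set. Of the 22 paternally expressed genes, 0 rose and 4 fell in sarcomas, and of the 21 maternally expressed genes, 3 rose and 2 fell, against 13.1% of all genes that rose and 13.2% that fell. Over the 43 genes 3 rose and 6 fell, and under ribosomal protein centring 1 rose and 9 fell. The median difference was -0.17 for the paternally and 0.40 for the maternally expressed genes, and 0.03 for all genes. Both medians describe lists chosen with these data known. The arrays do not tell the parental copies apart, so whether each listed gene is imprinted in these tissues was not measured. Of the 35 outside the set, 5 were at the floor on all 8 arrays: Peg10, Mkrn3, Peg12, Usp29 and Zim1.

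Besides Peg3, the paternally expressed genes that fell were Nnat, Slc38a4 and Nap1l5. Nnat, neuronatin, a membrane protein of brain and fat, had levels of 7.19, 5.70, 5.40 and 6.97 in Ca/Ca sarcomas 1, 2, 3 and 5 and of 8.10 and 5.48 in Ca/+ sarcomas 1 and 2, against muscle levels of 7.95 (Ca/Ca) and 10.87 (Ca/+). As with Peg3, Ca/+ sarcoma 1 lay above the Ca/Ca muscle and the Ca/+ muscle was highest. It fell by 2.94 (SE 0.91, adjusted p = 0.0459, limma), and without the Ca/+ muscle the difference was -1.48 (adjusted p = 0.43). The call for Nnat was also lost without any 1 of the 4 Ca/Ca sarcomas or without Ca/+ sarcoma 2, at adjusted p from 0.0512 to 0.081. Slc38a4, an amino acid transporter gene, fell by 2.38 (SE 0.52, adjusted p = 0.0112), with 4.06 to 6.14 in sarcomas and 7.35 and 7.09 in the Ca/Ca and Ca/+ muscles. The call of Slc38a4 was lost without either muscle (differences of -2.51 and -2.25, with adjusted p of 0.076 and 0.0721, when the Ca/+ or the Ca/Ca array was left out). Nap1l5 fell by 0.72 (SE 0.22, adjusted p = 0.0394), with all 6 sarcomas and 1 muscle at the floor, and without the Ca/+ muscle the difference was -0.30 (adjusted p = 0.398). Its call was also lost without Ca/Ca sarcoma 1, 2 or 5 or either Ca/+ sarcoma, at adjusted p from 0.0516 to 0.072.

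Of the maternally expressed genes, Asb4 fell by 2.59 (SE 0.27, adjusted p = 0.00041, limma), with 2.87 to 3.91 in sarcomas, all at or under the 95% level of olfactory receptor genes, and 6.37 and 5.86 in the Ca/Ca and Ca/+ muscles. Asb4 encodes a protein with ankyrin repeats and a SOCS box. Slc22a2, an organic cation transporter gene, fell by 0.52 (adjusted p = 0.0202), with 4 sarcomas at the floor, and without the Ca/Ca muscle the difference was -0.37 (adjusted p = 0.169). H13, a signal peptide peptidase gene, rose by 1.35 (SE 0.19, adjusted p = 0.00182), with 9.59 to 10.20 in sarcomas and 8.65 and 8.24 in the Ca/Ca and Ca/+ muscles, and the mean of its probe sets differed by 0.42 (adjusted p = 0.0209). Atp10a, a lipid flippase gene, rose by 0.91 (adjusted p = 0.0168, limma), with 4.04 to 4.86 in sarcomas and both muscles at the floor. Tssc4 rose by 0.77 (adjusted p = 0.00679, limma). Both calls were lost under ribosomal protein centring (adjusted p = 0.0976 for Atp10a and 0.071 for Tssc4). Without the Ca/Ca muscle they were also lost, at adjusted p = 0.0724 for Atp10a and 0.0626 for Tssc4, and Atp10a did not pass with the Ca/+ muscle left out (adjusted p = 0.13). In the comparison of Ca/Ca with Ca/+ sarcomas, 0 of the 43 genes passed. An unadjusted p under 0.05 in limma was found for 4 of the 43 and for 971 of all 12393 genes.

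**Figure D5:**
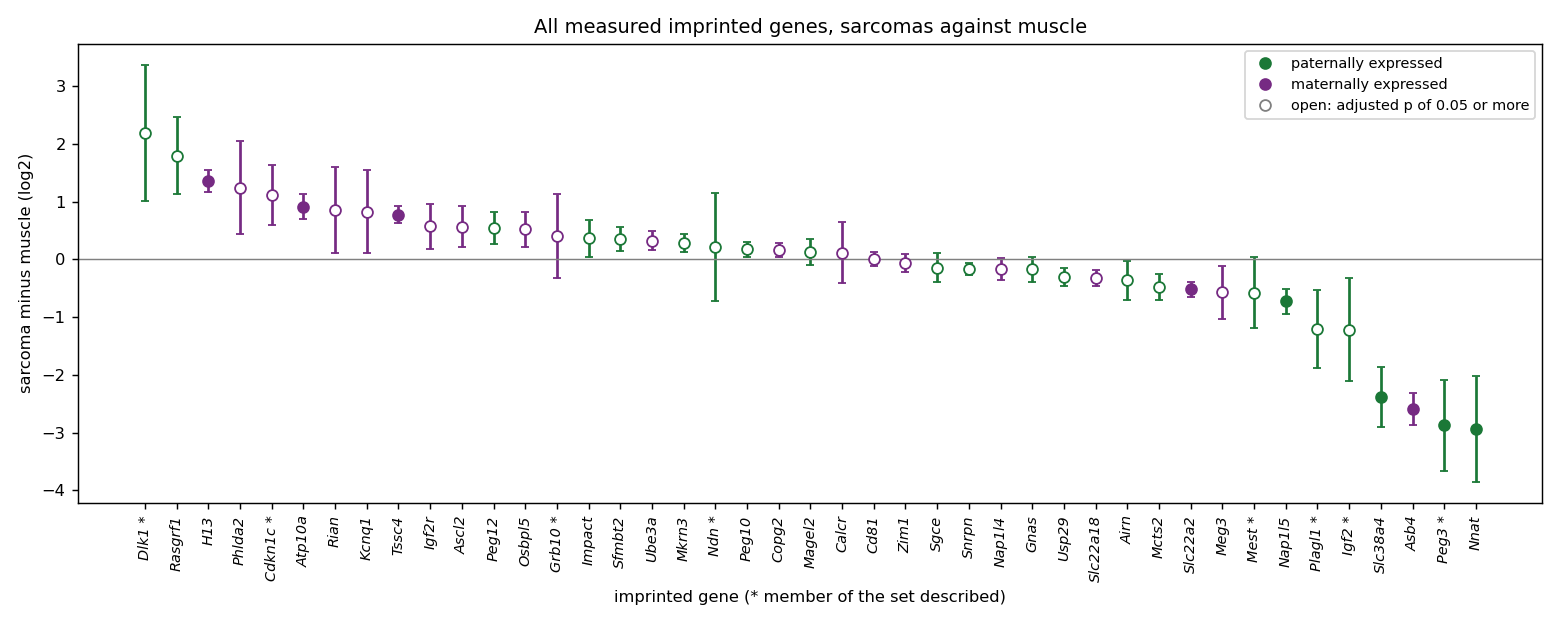
Difference of sarcomas minus muscle (vertical axis, log2, bars are SE) for all 43 measured imprinted genes (horizontal axis), green for paternally and purple for maternally expressed genes, filled where the gene passed and starred where it belongs to the set. The 4 paternally expressed genes that passed all fell, and of the 5 maternally expressed genes that passed 3 rose and 2 fell.

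Genes that keep imprints in place were listed as well. Of 11 measured, 3 rose and 0 fell, against 13.1% of all genes that rose. Dnmt1, the maintenance DNA methyltransferase, rose by 1.31 (SE 0.32, adjusted p = 0.0188, limma), with 7.92 to 9.03 in sarcomas and 7.44 and 7.0 in the Ca/Ca and Ca/+ muscles. Uhrf1, which brings Dnmt1 to copied DNA, rose by 1.85 (SE 0.57, adjusted p = 0.0438) and Trim28, a corepressor, by 1.11 (SE 0.29, adjusted p = 0.0231). All 3 calls were lost without either muscle, at adjusted p from 0.0501 to 0.362, and under ribosomal protein centring (adjusted p = 0.0652 for Dnmt1, 0.0746 for Uhrf1 and 0.101 for Trim28). Under cyclic loess those of Uhrf1 and Trim28 were lost (adjusted p = 0.0512 and 0.0524), and with genotype as a covariate that of Uhrf1 (adjusted p = 0.0511). That of Uhrf1 was also lost without Ca/Ca sarcoma 1 or 2 or either Ca/+ sarcoma, at adjusted p from 0.0655 to 0.0788. The cell division markers, whose means are given above, were higher in sarcomas too, and their part in these results was not tested. Of 19 receptors, relatives and partners of the set, 1 rose and 5 fell, against 13.1% of all genes that rose and 13.2% that fell. All 6 are named above. The median difference over the 19 was 0.08.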

How the data were processed

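Per the submitters' processing notes the authors ran RMA (version not stated), and the deposited table holds log2 values per probe set. That the scale is log2 was read from the range, with array medians from 5.79 to 5.90. Scan dates, and whether the 8 arrays were processed as 1 set, are unknown here. RMA values on a common distribution cannot show a change in RNA per cell, and the number of arrays limits the precision.

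Of 22690 probe sets, 64 controls were left out, 20380 had 1 gene symbol by the platform annotation, 691 had several and 1555 had none, and 0 symbols needed an update through the RefSeq gene table (GRCm38.p6). This gave 12393 genes. Tests used R 4.3.3 with limma 3.58.1 (lmFit, eBayes). The comparison with muscle used all 8 arrays, that of genotypes the 6 sarcomas. Pairs were tested by exact permutation in Python 3.11.15 (scipy 1.17.1), and figures used matplotlib 3.10.9. Scripts were tested on simulated data. The probe sets of the set were also fitted among all probe sets, and the H19/Mir675 probe set joined the pairs, both added after the data were seen. Other normalizations, filters and weights, and leaving out each array, were tried as alternatives.

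The genes of the set, the lists and the tests were chosen with earlier results of these data known. Named genes were every gene of the set, other imprinted genes that passed or neighbour one of the set, genes of the partner and imprint upkeep lists that passed, and the 3 genes most like the one with the widest range. Igf1r, Igf2r, Notch1, Gpc4, Gpc6, Cdkn1a, Peg10 and Peg12 fall outside this rule and were chosen after their values were seen. The same holds for Slc22a18, Cd81, Ascl2, Osbpl5 and Nap1l4.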

Additional observations from a re-analysis of the deposited data

Results flagged for a closer look

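Among the 6 sarcomas the level of Ndn in Ca/Ca sarcoma 5 (5.40) lay far from the others, the next being 8.31, with a gap of 0.681 of the whole range. Among the 4 Ca/Ca sarcomas the same value (5.40) was set apart by 0.923 of the range. Mkrn3, a neighbour of Ndn, was 2.89 in Ca/+ sarcoma 1 and at most 2.60 in the other sarcomas, a gap of 0.682 of the range, and all of its values lie at the floor of the arrays. These are 3 of 54 groups of values examined, and chance sets about 1 in 20 apart.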

How the results depend on the processing

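Gpc3 passed in sarcomas against muscle under all 18 alternatives that tested it, with differences from -2.71 to -1.34. Some of these leave 1 muscle and take their spread from the sarcomas alone, and the others use a common spread for both tissues. Gpc3 is left out when the dimmest 50% of genes are dropped. Peg3 passed under 13 of 19. The number of the 9 genes called, 2, became 1 without the dimmest 50% of genes and 1 with Ca/Ca arrays alone, and ran from 1 to 2 when each array was left out. With Ca/+ arrays alone, 2 sarcomas against 1 muscle, it was 2, Gpc3 and Grb10, and without Ca/Ca sarcoma 2 it was 2, Gpc3 and Cdkn1c. Over all genes the 3256 calls became 601 with Ca/Ca arrays alone and 1287 with Ca/+ arrays alone, and ran from 1195 (without the Ca/+ muscle) to 3451. Of the 43 imprinted genes, 9 calls became 5 and 4 without the dimmest 25% and 50% of genes, 1 with Ca/Ca and 2 with Ca/+ arrays alone, and ran from 4 to 9 when an array was left out, with 5 without the Ca/Ca muscle. The share of calls that were higher, 49.9%, was 38.7% under cyclic loess, 32.7% under housekeeping centring, 22.1% under ribosomal protein centring, 61.7% without the dimmest 50%, 15.1% with Ca/Ca arrays alone and 31.1% without the Ca/+ muscle. The median difference of all genes was -0.17 under housekeeping centring and -0.22 under ribosomal protein centring, against 0.03 as reported. Between the sarcoma genotypes 0 of the 9 genes passed under every alternative, and over all genes leaving out an array gave 0 to 1 calls, the 1 without Ca/+ sarcoma 1. Of the 45 pairs, 0 passed. The causes were not tested.

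With tumour number as a replicate block, 0 genes passed between the genotypes, with Plagl1 at -1.32 (adjusted p = 0.682), Ndn at -0.89, Grb10 at -0.59, Igf2 at 1.04 and Dlk1 at 0.92, against -0.52 without the block. Only 2 numbers are shared. Deviations from the genotype means correlated at -0.19 for number 1 and 0.29 for number 2. With 2 Ca/+ sarcomas their deviations are mirror images of each other. These values therefore cannot show whether samples of the same number share more than the number. Only 2 muscles, one of each genotype, stand behind every comparison with muscle. Probe sets at the floor cannot show how low a gene lies.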
